A study of Mus musculus with 36 samples.

Results

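The expression of 7 genes of sterol metabolism, Hmgcs1, Idi1, Fdft1, Sqle, Lss, Insig1 and Srebf2, was described in mouse cortical cultures treated with a glucocorticoid. The genes were taken by symbol, as genes under the control of the transcription factor SREBP2, from the 55487 genes of a deposited count table. All 7 were among the 20355 genes with a mean count above 5 over the 36 libraries, which were the genes tested. Of the 7, 5 encode enzymes of cholesterol synthesis, Insig1 encodes a regulator and Srebf2 the transcription factor, so that none of them itself takes up cholesterol. The cells were dissociated from the cortex of mice at embryonic day 18, under the source name C57EDCX, and no transgene or allele is named in their labels. The control cultures received no drug, the DEX cultures received 1 µM dexamethasone (DEX, a synthetic glucocorticoid) for 72 h, and the DEX+RU486 cultures received DEX together with 1 µM RU486 (mifepristone, which blocks the glucocorticoid receptor). Each group held 12 libraries, 6 in each of 2 batches. The labels do not say whether libraries came from separate cultures or animals, so that p-values measure the spread between libraries, which may in part be technical.

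The libraries differed in depth and in RNA integrity, and both went with treatment in batch 1. Totals were between 12.1 and 82.4 M counts per library, and the lowest count of any of the 7 genes in any library was 417. Counting error was not compared with the spread between libraries. The RNA integrity number (RIN), which is higher for more intact RNA, was 7.8 to 9.2 in the control libraries of batch 1, 3.9 to 7.8 in DEX and 5.6 to 7.9 in DEX+RU486. Every control library of that batch was also deeper than every DEX library, so that treatment, RIN and depth cannot be told apart there. Batch 2 held 2 degraded libraries per group, with RIN values under 3, and 4 per group with values of 7.4 to 8.7. Results are therefore given for batch 1, for the 12 batch 2 libraries whose RIN was at least 6 (the intact libraries of batch 2), and for all 36 libraries with batch as a covariate. Markers of neurons were present in every library, with a summed level of 2400 to 3123 CPM (counts scaled to library size with TMM factors) in batch 1 control libraries, and those of microglia, endothelial cells and fibroblasts summed to at most 10.1 CPM in any library.

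Cholesterol is made from acetyl-CoA in a long chain of steps in the endoplasmic reticulum and the cytosol. When sterols in the endoplasmic reticulum are scarce, the escort protein SCAP carries SREBP2 to the Golgi, where 2 proteases release its transcription factor domain, which then raises the transcription of most enzymes of the chain. When sterols are plentiful, INSIG proteins hold SCAP and SREBP2 back, and the genes of the pathway fall together. In the brain, cholesterol is made locally because lipoproteins of the blood do not cross the blood-brain barrier, and growing neurons and glia are known to use the pathway heavily.

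In the annotation of GRCm38, Hmgcs1 lies at chr13:119690379-119708260, Idi1 at chr13:8885501-8892451, Sqle at chr15:59315077-59331192, Lss at chr10:76531588-76557138, Insig1 at chr5:28071363-28078662 and Srebf2 at chr15:82147181-82205379, each on the plus strand. Fdft1 lies on the minus strand at chr14:63145150-63179578. All are protein-coding genes. Fdft1 shares 774 bases with Ctsb on the opposite strand, which had a mean count of 2295 per library, and Hmgcs1, Lss and Idi1 overlap the opposite-strand genes Gm48342, 4930483K19Rik and Gm48574, which had mean counts of 121, 33.7 and 11.1. Srebf2 shares 2110 bases with Gm49502 on the same strand, which had a mean count of 130, and also holds Mir33, with a mean count of 0. Whether counting used strand is not given in the sources used here, and strand cannot resolve the overlap of Srebf2, so reads in these stretches could have been assigned to either gene or left uncounted.

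Promoter sequences were available from RefSeq (GRCm38.p6) for 5 of the 7 genes, as windows from 250 bases before to 50 bases after the RefSeq start. The windows were searched on both strands for the classic sterol regulatory element of 10 bases, its shorter form TCACNCCAC (contained in the longer), CCAAT (the box of NF-Y, a factor known to act beside SREBPs), GGGCGG (the GC box) and CACGTG (the E-box). The 3 upstream stretches below are shown because they belong to the regulators Insig1 and Srebf2 and to Hmgcs1, the most highly expressed of the genes. They are plus-strand sequences at chr13:119690101-119690350, chr5:28071162-28071362 and chr15:82147019-82147180, each ending before the annotated start, with matches to TCACNCCAC or, on either strand, to CCAAT in capitals.
Hmgcs1: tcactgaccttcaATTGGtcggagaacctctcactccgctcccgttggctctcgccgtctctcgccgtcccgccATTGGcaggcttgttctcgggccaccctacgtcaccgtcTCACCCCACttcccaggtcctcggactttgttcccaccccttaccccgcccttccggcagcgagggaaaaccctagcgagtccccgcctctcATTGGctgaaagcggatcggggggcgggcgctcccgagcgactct
Insig1: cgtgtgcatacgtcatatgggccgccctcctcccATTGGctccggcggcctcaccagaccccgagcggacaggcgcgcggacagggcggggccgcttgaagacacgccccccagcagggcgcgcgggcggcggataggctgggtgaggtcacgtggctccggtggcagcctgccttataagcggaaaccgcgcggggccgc
Srebf2: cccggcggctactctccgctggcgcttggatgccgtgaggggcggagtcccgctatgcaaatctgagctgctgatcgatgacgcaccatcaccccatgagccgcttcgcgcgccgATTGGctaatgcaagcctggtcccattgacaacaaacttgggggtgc
The short sterol element was found in 1 of the 5 windows, that of Hmgcs1, with its first base 137 bases before the RefSeq start, whereas 1.24% of the 32817 mouse promoter windows held it. The longer form was found in 0 of the 5 windows (0.0914% of all windows). CCAAT was present in all 5, each time on the opposite strand as ATTGG, with 4 matches in Hmgcs1, 2 in Idi1 and 1 each in Insig1, Lss and Srebf2, against 37.4% of all windows with at least 1 match. GGGCGG was also present in all 5 (35.6% of all windows), and CACGTG in Insig1 alone (7.15% of all windows). These are matches of letters in a fixed window and not measured binding.

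Per kilobase of exon, Hmgcs1 was the most abundant of the genes in control cultures by a wide margin. In the control libraries of batch 1 its level was 374 ± 47.8 CPM per kb (SD, n = 6), followed by Idi1 at 54.9 ± 5.86, Insig1 at 53.3 ± 4.62, Sqle at 50.8 ± 5.25, Srebf2 at 43.2 ± 3.0, Fdft1 at 43.0 ± 3.83 and Lss at 18.6 ± 3.17. Idi1 and Insig1, Insig1 and Sqle, and Srebf2 and Fdft1 differed by less than the larger of their SDs. Among the intact control libraries of batch 2 the order began again with Hmgcs1, at 289 ± 8.87 CPM per kb (SD, n = 4), and ended with Lss, at 34.2 ± 1.02. The untreated cultures of the batches differed in Lss, which encodes lanosterol synthase, the enzyme that closes squalene epoxide into the first sterol. Its level was 145 to 230 CPM in batch 1 and 361 to 385 CPM in the intact libraries of batch 2, without overlap. Fdft1 was likewise higher in every intact batch 2 control library than in any batch 1 control library, and Sqle was lower, whereas 14.9% and 16.4% of all tested genes were separated in these directions.

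**Figure D1:**
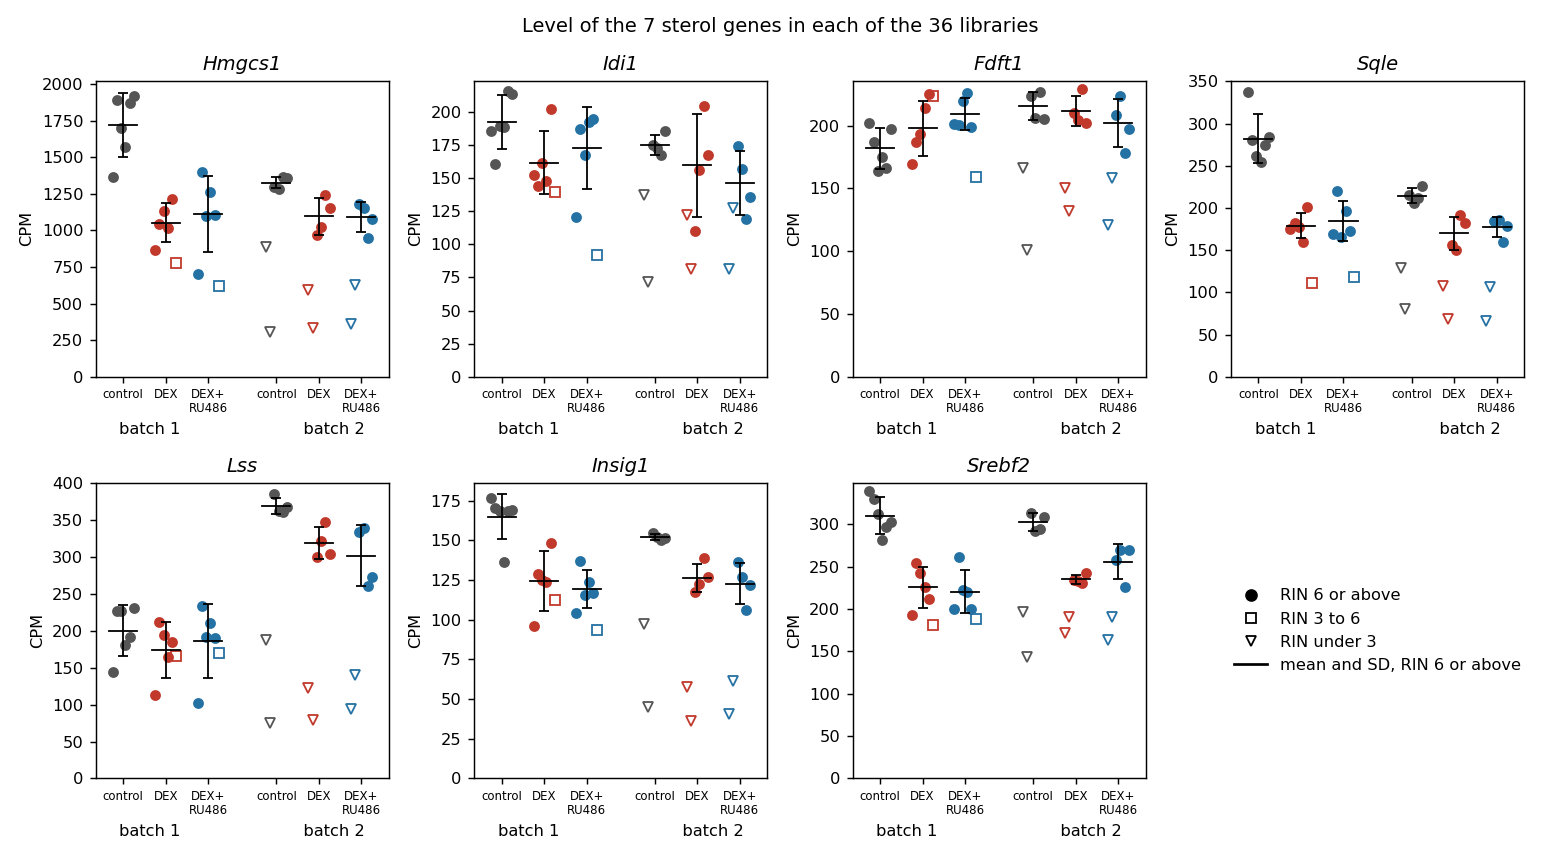
CPM (y axis, linear from 0) of each of the 7 genes in each of the 36 libraries, by batch and treatment. Filled circles are libraries of RIN 6 or above with their mean and SD, open squares those of RIN 3 to 6 and open triangles those of RIN under 3. Control libraries of Hmgcs1, Sqle and Srebf2 in batch 1 lie above the DEX libraries, and the triangles of batch 2 lie below the circles of their group for each gene except Idi1.

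The first comparison, DEX against control, asks what 72 h of a glucocorticoid changed. In batch 1, Hmgcs1, Sqle, Insig1 and Srebf2 fell, by 0.38 to 0.72 on the log2 scale, whereas Idi1, Fdft1 and Lss did not pass the test. For the intact libraries of batch 2 the estimates of all 7 genes were negative, smaller in size than in batch 1 for the 4 genes that fell there, and only Srebf2 passed. In all 36 libraries together, none passed edgeR's quasi-likelihood test, whereas DESeq2 called Srebf2 and edgeR with RIN as a covariate called Sqle and Srebf2. In RNA of whole cultures, fewer cells of a type and less RNA per cell cannot be told apart.

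Hmgcs1 encodes the cytosolic HMG-CoA synthase, which joins acetyl-CoA and acetoacetyl-CoA near the start of the pathway. In batch 1 its level was 1361, 1571, 1700, 1868, 1892 and 1917 CPM in control libraries and 776, 863, 1013, 1044, 1133 and 1212 CPM in DEX libraries. Every DEX library was thus below every control library, and the lowest DEX library, replicate 12, had the lowest RIN of its batch (3.9). The fall was 0.72 on the log2 scale (SE 0.17, adjusted p = 0.00550, edgeR's quasi-likelihood test), to 0.605 of the control level. Among intact libraries of batch 2, control was at 1285, 1298, 1356 and 1366 CPM and DEX at 967, 1022, 1152 and 1243 CPM. The groups again did not overlap, but the difference of -0.26 (SE 0.089, adjusted p = 0.147) did not pass the test.

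Sqle encodes squalene epoxidase, a rate-limiting enzyme that adds oxygen to squalene. In batch 1, control libraries were at 254, 262, 274, 281, 284 and 337 CPM and DEX libraries at 111, 159, 175, 178, 182 and 201 CPM. The groups did not overlap, and the fall was 0.70 on the log2 scale (SE 0.13, adjusted p = 0.00173). For the intact libraries of the second batch, the control range of 206 to 226 CPM lay above the DEX range of 150 to 192 CPM, with a difference of -0.33 (SE 0.084, adjusted p = 0.0752). The separation was complete in batch 1 and in the intact libraries of batch 2, and the test was passed in batch 1.

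Srebf2 encodes SREBP2 itself. In batch 1, its control libraries were at 281 to 339 CPM (median 308) and its DEX libraries at 181 to 255 CPM (median 219), a fall of 0.46 on the log2 scale (SE 0.098, adjusted p = 0.00316). Among intact batch 2 libraries, control was at 292, 295, 309 and 314 CPM and DEX at 230, 233, 234 and 243 CPM, so that every DEX library was below every control library. The fall there was 0.35 (SE 0.070, adjusted p = 0.0381), to 0.783 of the control level. This call was lost in 7 of the 8 fits that left out 1 library of control or DEX (all but the fit without DEX replicate 30, in which 1.79% of all genes were called lower), with an adjusted p of up to 0.141 and a log2 fold change that stayed between -0.37 and -0.34.

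Insig1 encodes the endoplasmic reticulum protein that retains SCAP when sterols are plentiful. In batch 1, control libraries were at 136, 168, 169, 169, 170 and 176 CPM and DEX libraries at 95.8, 112, 124, 125, 129 and 149 CPM. A single control library, replicate 4 at 136 CPM, lay within the DEX range, and the fall was 0.38 (SE 0.10, adjusted p = 0.0130). The intact control libraries of batch 2 lay within 150 to 155 CPM, above the DEX range of 118 to 139 CPM, with a difference of -0.26 (SE 0.080, adjusted p = 0.126).

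The other 3 genes did not pass the test in either batch. Idi1, the isomerase of the isopentenyl diphosphate step, was at 161 to 216 CPM in control and 140 to 202 CPM in DEX of batch 1, a difference of -0.24 (SE 0.15, adjusted p = 0.280). Lss was at 145 to 230 CPM in control and 113 to 212 CPM in DEX (-0.17, SE 0.17, adjusted p = 0.512). Fdft1, the squalene synthase that commits the pathway to sterols, stood apart with a positive estimate of 0.20 (SE 0.10, adjusted p = 0.168), from 164 to 202 CPM in control and 170 to 225 CPM in DEX. Batch 2 estimates, from its intact libraries, were -0.12 for Idi1, -0.20 for Lss and -0.014 for Fdft1, with adjusted p-values of 0.708, 0.258 and 0.944. The 95% interval for Fdft1 in that batch ran from -0.18 to 0.15, which still holds changes of either sign.

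Set against all genes, 4 of the 7 were called lower in batch 1, where 10.2% of the 19075 genes tested were called lower and 9.61% higher, and 4 of 7 had an unadjusted p under 0.05 (33.4% of all genes). Among the intact libraries of batch 2, 1 of 7 was called lower, where 0.237% of 20652 genes were called lower and 0.324% higher, and 5 of 7 had an unadjusted p under 0.05, where 17% of genes did. The median log2 fold change of the 7 genes was -0.38 in batch 1 and -0.26 in the intact libraries of batch 2, beside 0.05 and 0.010 over all genes tested. In all 36 libraries, 0 of 7 were called by edgeR's quasi-likelihood test (0.00983% of genes were called lower and 0.0147% higher), 4 of 7 had an unadjusted p under 0.05 (16.9% of all genes), and DESeq2 called 1, Srebf2. Groups without overlap, with DEX lower, were found for 3 of 7 genes in batch 1 (Hmgcs1, Sqle and Srebf2) and for 5 in the intact libraries of batch 2 (those 3, Insig1 and Lss), beside 6.66% and 7.03% of all genes.

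The calls of batch 1 held in each of the 12 fits that left out 1 library, for each of the 4 genes (8.03% to 11.4% of all genes were called lower), but not with RIN as a covariate. With RIN in the model of batch 1, an alternative added after the data were seen, the log2 fold changes were -0.25 for Hmgcs1, -0.36 for Sqle, -0.20 for Insig1 and -0.29 for Srebf2, with adjusted p-values between 0.150 and 0.422, and 1.6% of all genes were called lower. Among the 28 libraries whose RIN was at least 6, 4 of the 7 genes (Hmgcs1, Sqle, Insig1 and Srebf2) were called lower (12% of all genes), with log2 fold changes from -0.52 to -0.34, and 1 (Sqle) remained so once RIN was added (0.0699% of all genes). The log2 fold changes were then -0.43 for Sqle, -0.35 for Srebf2 (adjusted p = 0.0520), -0.26 for Hmgcs1 and -0.25 for Insig1. The difference between batches was tested itself and was called for 0 of the 7 genes by edgeR (0.172% of all genes in all libraries and 3.87% in those of RIN 6 or above). At an unadjusted p under 0.05 there were 0 of 7 in all libraries (12.9% of all genes) and 2 of 7, Hmgcs1 and Sqle, in those of RIN 6 or above (18% of all genes). The widest difference was that of Hmgcs1, by 0.48 (SE 0.41, adjusted p = 0.676) in all libraries and by 0.44 (SE 0.18, adjusted p = 0.187) in those of RIN 6 or above.

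**Figure D2:**
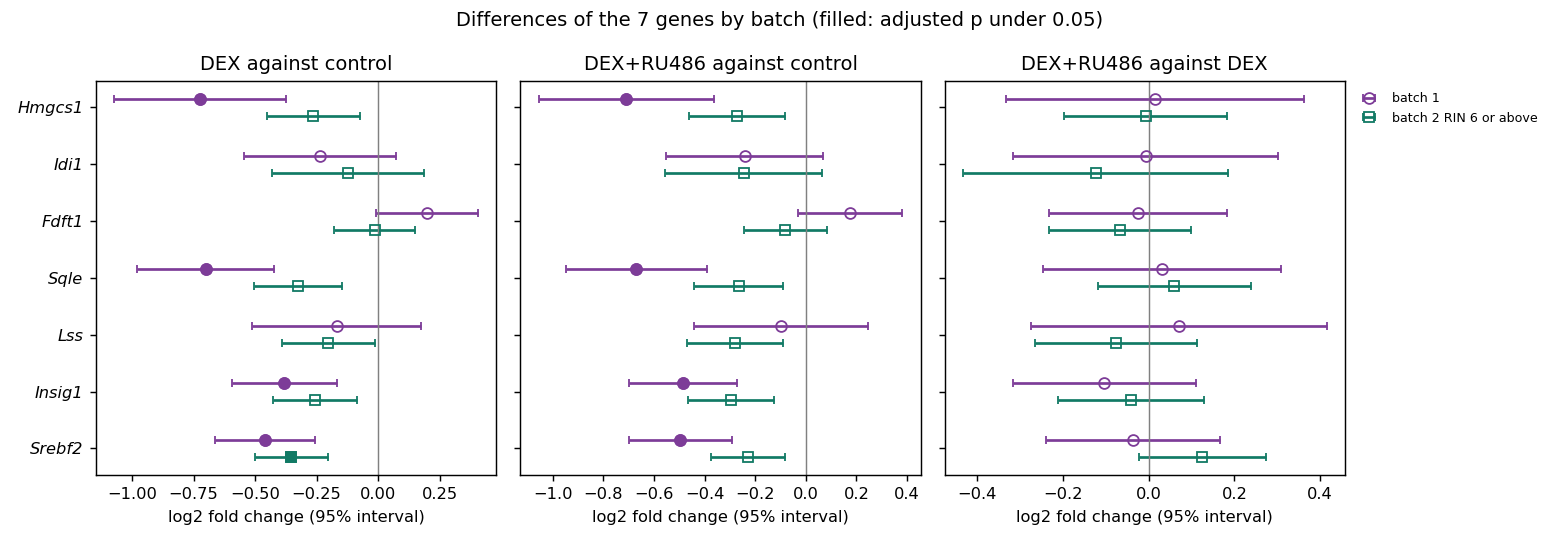
Log2 fold change (x axis) of each of the 7 genes with its 95% interval, for DEX against control, DEX+RU486 against control and DEX+RU486 against DEX, in batch 1 (circles) and in the intact libraries of batch 2 (squares). Filled symbols passed an adjusted p of 0.05. In the panels against control, Hmgcs1, Sqle, Insig1 and Srebf2 are filled in batch 1, and in the panel of DEX+RU486 against DEX every interval crosses 0.

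The second comparison set DEX+RU486 against control, and so shares its control libraries with the first. In batch 1, Hmgcs1, Sqle, Insig1 and Srebf2 passed the test as lower, 4 of 7 genes where 8.77% of all genes were called lower and 7.72% higher, and the 4 were also those with an unadjusted p under 0.05 (31.2% of all genes). Batch 2 gave 7 negative estimates in its intact libraries, of which 0 passed (edgeR's quasi-likelihood test, 0.00484% of genes called lower), with 5 of 7 at an unadjusted p under 0.05 (7.42% of all genes).

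Hmgcs1 was at 617, 704, 1095, 1108, 1261 and 1397 CPM in the DEX+RU486 libraries of batch 1. The highest of these, replicate 14, passed the lowest control library (1361 CPM), so the groups overlapped by a single library, and the 2 lowest had the lowest RIN of the group (5.6 and 6.6). The fall against control was 0.71 on the log2 scale (SE 0.17, adjusted p = 0.00879). Sqle was at 119 to 221 CPM (median 170), below every control library, and fell by 0.67 (SE 0.13, adjusted p = 0.00381). Srebf2 was at 189 to 261 CPM (median 210), also below every control library, and fell by 0.50 (SE 0.098, adjusted p = 0.00351). Insig1 was at 93.8 to 137 CPM (median 116) and fell by 0.48 (SE 0.10, adjusted p = 0.00509). Separation from control in this direction was seen for 5.16% of all genes in batch 1.

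Among intact libraries of batch 2, Hmgcs1 was at 951, 1079, 1150 and 1179 CPM in DEX+RU486, Sqle at 160, 178, 184 and 186 CPM, and Insig1 at 106, 122, 127 and 137 CPM. Together with Lss and Srebf2, these genes were below control in every library, 5 of 7 genes where 4.11% of all genes were so separated. Their log2 fold changes were between -0.30 and -0.23, with adjusted p-values from 0.519 to 0.541. Idi1 was at -0.25 (adjusted p = 0.760) and Fdft1 at -0.081 (adjusted p = 0.880). In all 36 libraries 0 of 7 were called by edgeR (0% of genes were), 4 of 7 had an unadjusted p under 0.05 (10.8% of genes), and DESeq2 called 0. With RIN as a covariate in batch 1, 0 of 7 remained called (1.84% of all genes were called lower), with log2 fold changes of -0.41 for Sqle (adjusted p = 0.0685), -0.35 for Insig1 (0.0748), -0.36 for Hmgcs1 (0.153) and -0.36 for Srebf2 (0.0526). Among the 28 libraries whose RIN was at least 6, 4 of 7 were called lower (6% of all genes), and 4 also with RIN as a covariate (1.24% of all genes). The difference between batches was called by edgeR for 0 of 7 genes in all libraries (0.0835% of all genes) and in those of RIN 6 or above (1.72% of all genes). At an unadjusted p under 0.05 there were 0 of 7 in all libraries (11.9% of all genes) and 3 of 7, Sqle, Fdft1 and Srebf2, in those of RIN 6 or above (15.5% of all genes). The widest was that of Hmgcs1, by 0.46 (SE 0.41, adjusted p = 0.730) in all libraries and by 0.35 (SE 0.18, adjusted p = 0.363) in those of RIN 6 or above.

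The third comparison, DEX+RU486 against DEX, asks what the receptor blocker changed in the presence of DEX. For these 7 genes no difference was detected, in either batch or in both together. In batch 1 the log2 fold changes ran from -0.10 (Insig1) to 0.071 (Lss), and 0 of 7 genes were called by edgeR's quasi-likelihood test or had an unadjusted p under 0.05, where 0% and 3.99% of all genes did. Hmgcs1 differed by 0.015, with a 95% interval from -0.33 to 0.36, and Sqle by 0.031, with an interval from -0.25 to 0.31. Both intervals were wide beside the estimates. The intact libraries of batch 2 gave estimates from -0.12 (Idi1) to 0.13 (Srebf2, SE 0.070, adjusted p = 0.354), again with 0 of 7 called, where 0.775% of genes were called lower and 0.746% higher, and with 0 of 7 at an unadjusted p under 0.05, where 19.1% of genes were. Here the intervals were narrower, from -0.20 to 0.18 for Hmgcs1, from -0.12 to 0.24 for Sqle, from -0.21 to 0.13 for Insig1 and from -0.022 to 0.27 for Srebf2. In all 36 libraries the 7 estimates lay between -0.051 and 0.046, 0 were called by edgeR or DESeq2, and 0 had an unadjusted p under 0.05 (2.68% of genes did). For the difference between batches edgeR called 0 of 7 genes, as it did 0% of all genes in all libraries and 0.005% in those of RIN 6 or above, and 0 of 7 had an unadjusted p under 0.05 in either set (2.29% and 11.1% of all genes).

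RNA integrity moved with the levels of the 7 genes. In batch 2, the 6 libraries of RIN under 3 were compared with the 12 of RIN 6 or above, with treatment as a covariate. All 7 genes were lower in the degraded libraries, by 1.53 on the log2 scale for Lss (SE 0.15, adjusted p = 2.7e-08), 1.29 for Insig1 (SE 0.14), 1.21 for Hmgcs1 (SE 0.17), 1.04 for Sqle (SE 0.12), 0.66 for Idi1 (SE 0.15), 0.63 for Fdft1 (SE 0.098) and 0.61 for Srebf2 (SE 0.092). Of all genes, 25.7% were lower and 30.5% higher in the degraded libraries, and the median log2 fold change was 0.085 over all genes and -1.04 over the 7. The control library of RIN 1.8 held 305 CPM of Hmgcs1 and 44.8 CPM of Insig1, beside at least 1285 and 150 CPM in the intact control libraries of its batch. These differences exceeded those between treatments for all 7 genes in the intact libraries of the batch, and how far RIN contributes to the treatment differences of batch 1 was not tested beyond the models with RIN as a covariate.

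**Figure D3:**
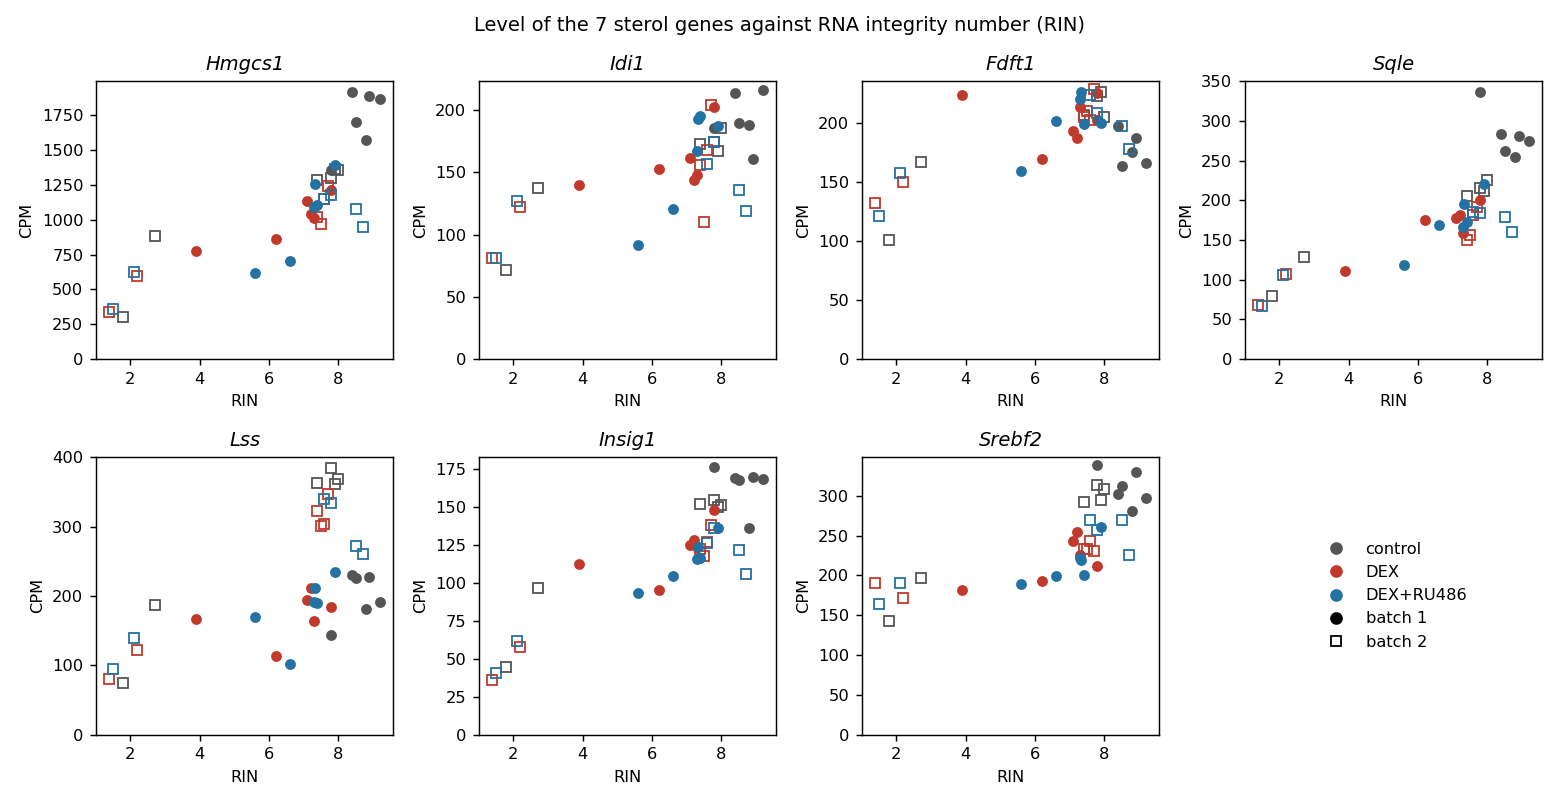
CPM (y axis, linear from 0) of each of the 7 genes against the RIN of the library (x axis), with treatment by colour and batch by symbol. The lowest level of each of the 7 genes is that of a library of RIN under 3, and the control libraries of batch 1 reach the highest RIN values, up to 9.2.

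The other 14 enzymes of the pathway that were listed, from Acat2 at its start to Dhcr7 near its end, were mostly estimated lower as well. In DEX against control of batch 1, 7 of the 14 fell and 0 rose (10.2% of all genes were called lower), with a median log2 fold change of -0.45. With RIN as a covariate in batch 1, 0 of the 14 were called lower for DEX and 1 for DEX+RU486, where 1.6% and 1.84% of all genes were. Nsdhl, which removes carbons from the sterol ring at C4, fell by 0.76 (SE 0.15, adjusted p = 0.00215), Sc5d, a late desaturase, by 0.69 (SE 0.14, adjusted p = 0.00236), mevalonate kinase (Mvk) by 0.58 (SE 0.13, adjusted p = 0.00466) and lanosterol demethylase (Cyp51) by 0.55 (SE 0.13, adjusted p = 0.00534). These 4 genes act at early and late steps of the pathway. Among the 7 genes, Sqle lies between Mvk and Cyp51 and passed as well, whereas Idi1, Fdft1 and Lss lie there too and did not. The single positive estimate among the 14 was that of Pmvk, 0.25. In DEX+RU486 against control, 9 of the 14 fell and 0 rose (8.77% of all genes were called lower; median -0.46), and Nsdhl, Mvk, Sc5d and Fdps were lower by 0.52 to 0.67 on the log2 scale. Among the intact libraries of batch 2, 13 of the 14 estimates for DEX were negative (48.8% of all genes were), and 2 passed (0.237% of all genes were called lower), namely Mvk (-0.56, SE 0.097, adjusted p = 0.0217) and Acat2, the cytosolic thiolase that makes acetoacetyl-CoA (-0.41, SE 0.082, adjusted p = 0.0381). Of the 8 fits that left out 1 control or DEX library there, Mvk was called in 4 (without control replicate 22 or DEX replicate 27, 29 or 30) and Acat2 in 1 (without DEX replicate 30), with 0.00483% to 1.79% of all genes called lower. Over all 36 libraries edgeR called 0 of the 14 for either treatment, with 4 and 5 at an unadjusted p under 0.05 (16.9% and 10.8% of all genes). For DEX+RU486 in the intact libraries of batch 2, all 14 estimates were negative and 0 passed, with 7 at an unadjusted p under 0.05 (7.42% of all genes). In the degraded libraries of batch 2, 10 of the 14 were lower (25.7% of all genes were), whereas Mvk, Pmvk and Mvd were higher (30.5% of all genes were), by 0.34, 0.51 and 0.29. The part of RIN in the differences of these enzymes between treatments was not tested beyond the models with RIN as a covariate.

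**Figure D4:**
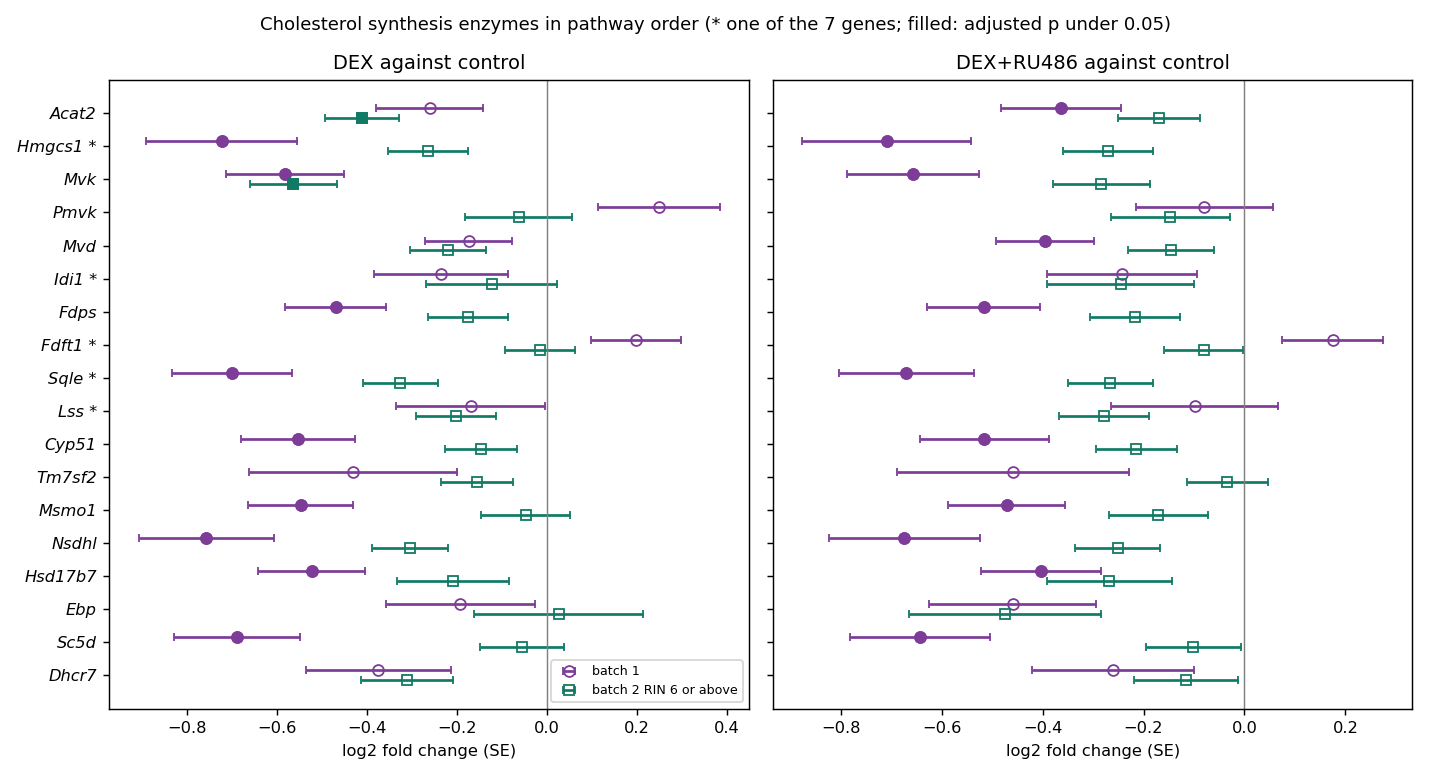
Log2 fold change (x axis, bars are SE) of 13 of the 14 other enzymes and of the 5 enzymes among the 7 genes (marked by an asterisk), in the order of the pathway, for batch 1 (circles) and the intact libraries of batch 2 (squares). Filled symbols passed an adjusted p of 0.05. Most symbols lie left of 0 in both panels, with Pmvk and Fdft1 to the right in batch 1 for DEX.

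Genes that act around the pathway moved in part, in a batch where 10.2% of all genes were called lower with DEX and 8.77% with DEX+RU486. Of 5 further genes of sterol control, Scap, the escort of SREBPs, fell by 0.35 (SE 0.10, adjusted p = 0.0206) and Mbtps2, a protease that releases them, by 0.63 (SE 0.22, adjusted p = 0.0489) in DEX against control of batch 1. In DEX+RU486 against control, Insig2 alone of the 5 passed, falling by 0.78 (SE 0.23, adjusted p = 0.0262). Of 9 genes of sterol uptake and trafficking, 3 fell under DEX in batch 1, the sterol carrier Stard4 by 0.89 (SE 0.15, adjusted p = 0.000981), the lipoprotein receptor Scarb1 by 0.49 (SE 0.14) and the receptor Lrp8 by 0.44 (SE 0.087). Their log2 fold changes in DEX+RU486 against control were -0.86, -0.54 and -0.43, and all 3 passed there too. These 3 were also lower in the degraded than in the intact libraries of batch 2 (-0.59, -0.94 and -0.63). Scap (-0.31) and Mbtps2 (-1.38) were lower there as well, as were 25.7% of all genes, whereas Insig2 (-0.25) did not pass. The part of RIN in their differences between treatments was not tested beyond the models with RIN as a covariate. With the intact libraries of batch 2, 0 genes of these lists passed in either comparison with control (edgeR's quasi-likelihood test). At an unadjusted p under 0.05 there were 2 sterol control genes and 1 uptake gene for DEX (17% of all genes), and 0 and 2 for DEX+RU486 (7.42% of all genes). Over all 36 libraries edgeR likewise called 0 genes of both lists for either treatment. At an unadjusted p under 0.05 there were then 1 sterol control gene and 4 uptake genes for DEX (16.9% of all genes) and 1 and 3 for DEX+RU486 (10.8%). With RIN as a covariate edgeR called 1 uptake gene for each treatment (1.32% and 0.467% of all genes were called lower). For libraries of RIN 6 or above it called 2 sterol control and 3 uptake genes for DEX, and 1 and 3 for DEX+RU486. Of all genes, 12% and 6% were called lower there.

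Among 6 known target genes of the glucocorticoid receptor, Per1 rose by 0.82 (SE 0.20, adjusted p = 0.00762) and Tsc22d3 by 0.69 (SE 0.22, adjusted p = 0.0313) with DEX in batch 1 (9.61% of all genes were called higher), and Per1 by 0.76 (adjusted p = 0.0147) with DEX+RU486 (7.72%). The others did not pass with DEX in batch 1. Their means in control and DEX were 17.4 and 16.4 CPM for Fkbp5 and 11.7 and 9.94 CPM for Errfi1. For Sgk1 they were 13.7 and 15.6 CPM, and for Zbtb16 4.84 and 9.05 CPM. In the intact libraries of batch 2, 0 of the 6 passed in any of the 3 comparisons, with 1, 2 and 2 at an unadjusted p under 0.05 for DEX, for DEX+RU486 and between them (17%, 7.42% and 19.1% of all genes). Over all 36 libraries 0 of the 6 passed against control, with 1 for each treatment at an unadjusted p under 0.05 (16.9% and 10.8% of all genes). In the libraries of RIN 6 or above, Zbtb16 and Per1 passed as higher with DEX (8.06% of all genes were called higher). Their log2 fold changes were 0.70 and 0.45 (adjusted p = 0.0306 and 0.0373, edgeR's quasi-likelihood test). Fkbp5 passed there as lower with DEX+RU486 (-0.44, adjusted p = 0.00990), where 6% of all genes were called lower. The summed level of 8 oligodendrocyte lineage markers was 61.4 to 277 CPM in control, 466 to 2121 CPM in DEX and 216 to 917 CPM in DEX+RU486 of batch 1, and 6 of the 8 rose with DEX and 4 with DEX+RU486. In the intact libraries of batch 2 the sums were 395 to 514, 638 to 1023 and 134 to 384 CPM. With all 36 libraries edgeR called 0 of these 8 markers for either treatment. At an unadjusted p under 0.05 there were then 4 with DEX and 0 with DEX+RU486 (16.9% and 10.8% of all genes). Neuronal markers summed to 1774 to 2741 CPM in DEX and 2007 to 2729 CPM in DEX+RU486 of batch 1, where 4 and 3 of the 6 fell (10.2% and 8.77% of all genes were called lower). In the intact libraries of batch 2 they summed to 1835 to 2082 CPM in control, 1893 to 2067 CPM in DEX and 1863 to 2021 CPM in DEX+RU486. Map2 made up most of these sums, with means of 1084 CPM in control and 1210 CPM in DEX. Nefl was also higher with DEX (15.1 and 21.5 CPM). Lower means with DEX were those of Tubb3 (331 and 247 CPM), Rbfox3 (49.0 and 43.7), Snap25 (163 and 156) and Syt1 (307 and 286). Astrocyte markers summed to 32.6 to 50.3 CPM in control, 38.8 to 77.1 CPM in DEX and 35.3 to 87.5 CPM in DEX+RU486 of batch 1, where 4 and 3 of the 7 rose. Markers of dividing cells summed there to 2.30 to 12.4, 8.07 to 59.3 and 6.68 to 63.4 CPM, and 2 and 3 of the 3 rose. Against control in the intact libraries of batch 2, edgeR called 0 markers of these 3 lists with either treatment. At an unadjusted p under 0.05 there were 3 neuronal, 2 astrocyte and 0 dividing cell markers with DEX (17% of all genes), and 1, 1 and 0 with DEX+RU486 (7.42%). The part of these cell types in the differences of the 7 genes was not tested.

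Across libraries of 1 batch and treatment, the 7 genes varied together to different degrees. Over the 28 libraries of RIN 6 or above, after the mean of each batch and treatment was subtracted, Pearson's r of a gene with the mean of the other 6 was 0.88 for Insig1, 0.78 for Hmgcs1, 0.69 for Lss, 0.61 for Sqle, 0.59 for Idi1, 0.54 for Srebf2 and 0.46 for Fdft1. Of the 20348 other genes, Scd2 (r = 0.94), Cyp51 (0.93), Acsl3 (0.88), Sec23a (0.86), Laptm4a (0.85), Peg13 (0.85), Vkorc1l1 (0.84), Dpysl2 (0.84) and Slc6a11 (0.83) were among the 10 whose levels followed the mean of the 7 most closely, where the median r over all genes was 0.054. Scd2 encodes a desaturase of fatty acid synthesis, and 5 of the 14 other cholesterol enzymes were among the first 50 genes of this order, whereas Mvk (r = 0.20), Ebp (-0.029) and Pmvk (-0.43) ranked 6692, 12254 and 19121. All genes of a library share its depth and RNA quality, which differed between the libraries, and the mean of the 7 had an r of 0.34 with RIN over the same libraries, so these values are a description without a test.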

How the data were processed

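The authors deposited 1 table of raw counts, whole numbers of reads per gene and library; the submitters' processing notes name HISAT2 2.1.0, Subread 1.5.0-p2 and GRCm38. Which of the alignments described in the paper the table holds, and the annotation release, are not given in the sources used here. The labels give batch, RIN and poly(A) selection, whereas the paper's methods name a library of total RNA, so which RNA the libraries were made from is not settled. The doses and duration are those of the paper's methods. Of the table's gene identifiers, 55227 matched GENCODE M21, from which symbols and coordinates were taken; 5 transgene names (6.22e-06% of counts) were left out.

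Genes with a mean count above 5 were tested with edgeR 4.0.16 (limma 3.58.1) in R 4.3.3, with TMM factors, the quasi-likelihood test and Benjamini-Hochberg adjustment over all genes tested, with calls at 0.05. Batches were also fitted alone. The SE is the log2 fold change divided by the square root of F. CPM used TMM factors, with a prior count of 2 on the log2 scale, and CPM per kb the union of exons. The 177 listed alternatives included DESeq2 1.42.0, other scalings, count filters, RIN and batch covariates, subsets and leaving out each library, and 39 were added after the data were seen. The procedure was tested on simulated data.

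The members and gene lists were chosen with earlier results of these data known. From each other list, the genes named were up to 4 called genes with the largest change or, where none was called, the gene of smallest p; those followed most closely were the 10 genes of highest r. The single-gene results of 2 genes are not reported here. Called genes beyond the 4 are counted only.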

Additional observations from a re-analysis of the deposited data

Results flagged for a closer look

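In 42 groups of 4 or 6 libraries (each gene, batch and treatment), 3 held a library that stood further from its nearest neighbour than Dixon's 95% critical value allows, and chance alone gives about 1 in 20. Sqle in control replicate 1 of batch 1 was the highest of its group at 337 CPM, with the nearest library at 284 CPM. Insig1 in control replicate 4 of batch 1 was the lowest of its group at 136 CPM, with the nearest at 168 CPM. Idi1 in DEX replicate 11 of batch 1 was the highest of its group at 202 CPM, with the nearest at 161 CPM.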

How the results depend on the processing

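With 0 of 7 genes called for DEX against control in all 36 libraries, DESeq2 called 1 (1.16% of all genes were called lower), RIN as a covariate gave 2 (1.32%), libraries of RIN 6 or above 4 (12%), batch 1 alone 4 (10.2%) and the intact libraries of batch 2 gave 1 (0.237%). Chosen after the data were seen, libraries of RIN 6 or above with RIN as a covariate gave 1 (0.0699%) and batch 1 libraries of RIN 6 or above 4 (11%). The same settings, in this order, called 1, 1, 11, 7, 2, 1 and 7 of the 14 other enzymes, beside 0. Batch 1 with RIN as a covariate called 0 and 0 (1.6%). For DEX+RU486 against control (0 of 7 and 0 of 14), RIN as a covariate called 2 and 1 (0.467%), libraries of RIN 6 or above 4 and 11 (6%), batch 1 alone 4 and 9 (8.77%), RIN 6 or above with RIN as a covariate 4 and 5 (1.24%), batch 1 with RIN as a covariate 0 and 1 (1.84%), and batch 1 libraries of RIN 6 or above 4 and 9 (8.4%). The other scalings, the count filters, the fit without batch, the fits of only the groups compared and batch 2 alone left these counts at 0, and DEX+RU486 against DEX stayed at 0 in every setting run. The cause of these shifts was not tested.

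Leaving out 1 library gave 0 to 3 of 7 genes and 0 to 4 of 14 enzymes for DEX against control: without control replicate 20 (RIN 1.8) Hmgcs1, Sqle and Srebf2 passed (4.44% of all genes were called lower), and without control replicate 19 (RIN 2.7) Srebf2 did, with 1 enzyme (0.826%). For DEX+RU486 the ranges were 0 to 2 and 0 to 4, reached without control replicate 20, where Sqle and Srebf2 passed (1.39%). In the intact libraries of batch 2, DEX against control ranged from 0 to 2, and the 2 were Sqle and Srebf2 without DEX replicate 30 (1.79%); in batch 1 it stayed at 4 (8.03% to 11.4%).

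Signs that changed belonged to values not called. For DEX against control these were Lss (0.039 with RIN as a covariate, 0.061 in batch 1 with RIN), Idi1 (0.081 in batch 1 with RIN) and Fdft1 (-0.014 in the intact libraries of batch 2, -0.0059 in RIN 6 or above with RIN). For DEX+RU486 against control they were Fdft1 (-0.048 in batch 2 alone, -0.081 in its intact libraries, -0.0066 to 0.10 on leaving out 1 library) and Lss (0.075 in batch 1 with RIN). For DEX+RU486 against DEX, RIN as a covariate gave Hmgcs1 -0.066, Sqle -0.030, Lss -0.0565 and Srebf2 -0.015; libraries of RIN 6 or above gave Fdft1 0.014; batch 1 alone gave Srebf2 -0.036; batch 2 alone gave Lss -0.040; and its intact libraries gave Hmgcs1 -0.0070 and Lss -0.076. The settings added later gave Hmgcs1 -0.060, Fdft1 0.040 and Lss -0.026 (RIN 6 or above with RIN), Hmgcs1 -0.12, Sqle -0.045 and Srebf2 -0.073 (batch 1 with RIN), and Idi1 0.080, Fdft1 0.067 and Srebf2 -0.047 (batch 1, RIN 6 or above). Leaving out 1 library gave ranges of -0.059 to 0.092 for Hmgcs1, -0.062 to 0.10 for Lss, -0.093 to 0.032 for Idi1, -0.14 to 0.020 for Insig1, -0.021 to 0.11 for Sqle, -0.074 to 0.013 for Fdft1 and -0.0034 to 0.064 for Srebf2. No paired analysis was possible because the groups share no replicate numbers. Batch 1 cannot separate treatment from RIN and depth, and the degraded libraries widen the spread of batch 2.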

Other observations

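Genes of lipid metabolism beside cholesterol synthesis moved as well. In DEX against control of batch 1, 6 of 8 genes of fatty acid synthesis fell (edgeR's quasi-likelihood test, by which 10.2% of all genes were called lower), among them the desaturases Scd2 by 0.80 on the log2 scale (SE 0.13, adjusted p = 0.000726) and Scd1 by 0.64 (SE 0.13), Acly, which makes cytosolic acetyl-CoA from citrate, by 0.64 (SE 0.10), and the elongase Elovl6 by 0.62 (SE 0.13). In DEX+RU486 against control, 5 of the 8 fell (8.77% of all genes), with log2 fold changes of -0.77 for Scd2, -0.71 for Acly, -0.71 for Scd1 and -0.60 for Fads2. Scd2, Scd1, Acly and Elovl6 were also lower in the degraded than in the intact libraries of batch 2 (-0.91, -0.50, -0.50 and -0.79). Of all genes, 25.7% were lower there, and Fads2 (-0.094) and Fasn (-0.21) did not pass. In the intact libraries of batch 2, Fads2 (-0.50, SE 0.082, adjusted p = 0.0163) and Fasn (-0.41, SE 0.083, adjusted p = 0.0400) fell with DEX, 2 of 8 where 0.237% of all genes were called lower. Of the 8 fits that left out 1 control or DEX library there, Fads2 was called in 3 (without DEX replicate 27, 29 or 30) and Fasn in 1 (without DEX replicate 30). With DEX+RU486 0 of 8 passed (0.00484% of all genes), and 6 of 8 had an unadjusted p under 0.05 (7.42% of all genes). Over all 36 libraries edgeR called 0 of the 8 for either treatment, with 7 and 5 at an unadjusted p under 0.05 (16.9% and 10.8% of all genes). With RIN as a covariate it called 2 for DEX and 1 for DEX+RU486, where 1.32% and 0.467% of all genes were called lower. For libraries of RIN 6 or above it called 7 and 5, where 12% and 6% of all genes were called lower.

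Of 6 tested genes of the liver X receptors and sterol efflux, 2 rose in batch 1 with each treatment, where 9.61% (DEX) and 7.72% (DEX+RU486) of all genes were called higher. The sterol exporter Abca1 rose by 1.75 with DEX (SE 0.59, adjusted p = 0.0389) and by 2.30 with DEX+RU486 (SE 0.59, adjusted p = 0.0125). The receptor Nr1h2 rose by 0.90 (SE 0.13, adjusted p = 0.000507) and 0.62 (SE 0.13, adjusted p = 0.00497). Abca1 was scarce in batch 1, with a mean of 0.79 CPM in control and 2.56 CPM in DEX (SD 2.14). Both genes were also higher in the degraded than in the intact libraries of batch 2, by 1.50 and 1.02 (30.5% of all genes were higher). Mylip was higher there too (0.83), whereas Abcg4 (-0.58) and Cyp46a1 (-0.60) were lower. The part of RIN in these differences between treatments was not tested beyond the models with RIN as a covariate. In the intact libraries of batch 2, 0 of the 6 passed against control, with 1 and 2 at an unadjusted p under 0.05 for DEX and DEX+RU486 (17% and 7.42% of all genes). In all 36 libraries 0 of the 6 were called either, with 2 and 1 at an unadjusted p under 0.05 (16.9% and 10.8% of all genes). In those of RIN 6 or above edgeR called 1 with DEX, Nr1h2 (0.53), where 8.06% of all genes were called higher. In the intact libraries of batch 2 the sterol exporter Abcg4 was higher in DEX+RU486 than in DEX (0.69, SE 0.11, adjusted p = 0.0160). By the same edgeR test, 0.746% of all genes were called higher there. Its estimate for DEX against control in those libraries was -0.46 (adjusted p = 0.0545). Over all 36 libraries the difference of Abcg4 between DEX+RU486 and DEX was 0.27 and did not pass. No hypothesis was tested on these lists.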
